A study of Rattus norvegicus with 12 samples.

Results

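The chamber identity transcription factors Irx4, Irx5, Hey2, Hey1, Nr2f1, Nr2f2, Tbx5, Tbx20 and Hand2 were read from RNA-seq of rat left atrium. These 9 genes were chosen by symbol among the 21239 genes with counts, and their levels were set against the share of atrial myosin light chains in each library. The table held 12 libraries, 3 in each of 4 groups, with total counts of 11252361 to 15823525. A level is given as CPM, the count of a gene scaled to a library total of 1000000, and a gene without a read may still be at up to 3 reads, or 0.190 to 0.267 CPM. This limit is one of counting error alone, since reads are not independent molecules.

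Per the paper, male Wistar-Kyoto (WKY) rats, the normotensive strain, and the untreated spontaneously hypertensive rats (SHRs) of the SHR group were fed saline (7.5 ml/kg/day). The ARB group were SHRs fed valsartan at 30 mg/kg/day, and the ARNI group were SHRs fed the combination sacubitril/valsartan at 60 mg/kg/day. Valsartan blocks the angiotensin receptor, and sacubitril adds a block of neprilysin, the enzyme that degrades natriuretic peptides. All animals were bought at 14 weeks of age, and treatment lasted 4 weeks. For the 6 libraries on saline, the title gives one strain in words and the other in the library name, and the name was used. The strain field of the labels reads Wistar-Kyoto in all 12 libraries. Cd36, which codes for a fatty acid transporter known to be defective in SHRs of some colonies, was at 1382 to 1584 CPM in the WKY libraries and at 63.6 to 285 CPM in the other 9. Mettl24 was at 3.02 to 3.58 CPM in the WKY libraries and at no more than 0.0688 CPM in the others. In both genes the libraries named SHR lay with the ARB and ARNI libraries, which the titles give as SHRs. The p-values below measure the spread between 3 libraries a group, each taken as 1 rat.

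The labelled tissue was checked against myosin light chains, of which atrial muscle cells use Myl7 and Myl4 and ventricular muscle cells use Myl2 and Myl3. The atrial share, the counts of Myl7 and Myl4 over those of all 4 light chains, was 0.177%, 0.0943% and 0.0304% in WKY replicates 1 to 3. It was 99.9%, 56.8% and 99.9% in the SHR group, 99.9%, 99.8% and 56.0% in the ARB group, and 99.9%, 0.242% and 98.9% in the ARNI group. Thus the 3 WKY libraries and ARNI replicate 2 had almost no atrial light chain despite their label, SHR replicate 2 and ARB replicate 3 held both kinds, and the other 6 libraries were nearly free of the ventricular kind. The natriuretic peptide gene Nppa was also low in the WKY libraries (32.5, 129 and 276 CPM) and in ARNI replicate 2 (40.8 CPM). It was at 17946 to 53632 CPM in the SHR group. In bulk tissue, fewer cells of a type and less RNA per cell cannot be told apart.

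Atrial and ventricular muscle cells keep their identity through transcription factors. Irx4 and Irx5 are Iroquois homeodomain factors, of which Irx4 is known as a ventricular factor and Irx5 for the gradient of repolarization across the ventricular wall. Hey1 and Hey2 are repressors downstream of Notch, known from the atria and the ventricles of the embryo, respectively. Nr2f1 and Nr2f2, the COUP-TF orphan nuclear receptors, act in atrial identity. The T-box factors Tbx5 and Tbx20 and the basic helix-loop-helix factor Hand2 are used in both chambers, with Tbx5 known to be richer in the atria.

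Promoters, the 250 bases before to 50 bases after the start of a gene, were found for 6 of the 9 factors in a RefSeq table (build GRCr8). Those of Irx4 and Hey2, which were higher in libraries with ventricular light chains, and of Tbx5 and Nr2f1, which were higher in libraries with atrial ones, are given 5′ to 3′ on the strand of the gene, with matches to the motifs searched in capitals. They lie at chr1:31868040-31868339 (minus strand, Irx4), chr1:28640850-28641149 (plus strand, Hey2), chr12:42395310-42395609 (minus strand, Tbx5) and chr2:9785875-9786174 (minus strand, Nr2f1).
Irx4: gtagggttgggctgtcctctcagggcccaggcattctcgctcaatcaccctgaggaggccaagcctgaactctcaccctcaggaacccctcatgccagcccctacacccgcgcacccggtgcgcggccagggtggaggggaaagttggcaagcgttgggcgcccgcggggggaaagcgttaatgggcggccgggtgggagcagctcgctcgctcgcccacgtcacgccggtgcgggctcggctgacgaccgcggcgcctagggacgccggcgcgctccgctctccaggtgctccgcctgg
Hey2: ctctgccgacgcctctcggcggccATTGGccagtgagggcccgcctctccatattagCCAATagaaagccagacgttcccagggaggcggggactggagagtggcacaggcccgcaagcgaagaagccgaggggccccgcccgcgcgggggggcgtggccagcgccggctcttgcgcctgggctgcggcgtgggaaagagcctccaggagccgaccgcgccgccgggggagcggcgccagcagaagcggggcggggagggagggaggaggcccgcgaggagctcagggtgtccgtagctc
Tbx5: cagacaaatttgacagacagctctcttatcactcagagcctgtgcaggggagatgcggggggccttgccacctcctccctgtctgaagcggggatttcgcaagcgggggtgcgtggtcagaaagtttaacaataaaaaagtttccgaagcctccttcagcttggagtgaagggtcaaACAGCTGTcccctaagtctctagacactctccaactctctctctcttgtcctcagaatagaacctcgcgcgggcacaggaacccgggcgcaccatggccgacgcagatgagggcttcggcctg
Nr2f1: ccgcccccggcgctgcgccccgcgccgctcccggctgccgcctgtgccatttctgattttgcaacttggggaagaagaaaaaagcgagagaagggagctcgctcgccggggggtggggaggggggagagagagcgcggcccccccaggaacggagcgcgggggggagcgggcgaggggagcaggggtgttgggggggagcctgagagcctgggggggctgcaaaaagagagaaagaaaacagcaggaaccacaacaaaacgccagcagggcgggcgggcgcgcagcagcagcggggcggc

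In all, 7 motifs were searched on both strands, namely the T-box site AGGTGT (in 13.6% of 33469 promoters of the same length), the nuclear receptor site AGGTCA (16.2%), the Hey sites CACGTG (6.42%) and CACGCG (8.5%), the Iroquois site ACANNTGT (7.89%), the GATA site AGATAA (11.6%) and the CCAAT box (37.5%). The Tbx5 promoter held the Iroquois letters once, 73 bases before the start. The Hey2 promoter held the CCAAT box on both strands, with first bases 226 and 193 bases before the start. The Hand2 promoter held the GATA letters once and the CCAAT box 2 times, and no motif was matched in Irx4, Nr2f1 or Tbx20. A match is only a match of letters. The promoters of Hey2 (73.3% G and C), Irx4 (71.0%) and Nr2f1 (70.3%) were richer in G and C than those of Tbx5 (56.0%) and Hand2 (49.3%), with a median of 51.7% over all promoters.

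Irx4 was present or absent by library rather than by group. It was at 40.6, 49.7 and 38.8 CPM in WKY replicates 1 to 3, at 0.0669, 31.1 and 0 CPM in the SHR group, at 0, 0 and 26.2 CPM in the ARB group, and at 0, 36.9 and 0 CPM in the ARNI group. In the SHR, ARB and ARNI groups, the libraries with Irx4 were those with ventricular light chains, SHR replicate 2, ARB replicate 3 and ARNI replicate 2. SHR replicate 1 held 1 read, and 5 libraries held none, which allows up to 0.190 to 0.206 CPM.

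Hey2 followed the same libraries, without falling to 0. It was at 19.1, 20.9 and 16.9 CPM in the WKY group, at 1.54, 14.1 and 2.17 CPM in the SHR group, at 1.26, 1.72 and 14.7 CPM in the ARB group, and at 1.01, 19.0 and 4.68 CPM in the ARNI group. ARNI replicate 3, with 98.9% atrial light chains, had the highest Hey2 level of the 6 libraries with nearly pure atrial light chains.

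Irx5 was at 20.2, 24.7 and 18.2 CPM in the WKY group, at 4.94, 7.13 and 5.35 CPM in the SHR group, at 5.16, 3.19 and 2.21 CPM in the ARB group, and at 4.995, 14.4 and 0.359 CPM in the ARNI group. Every WKY library lay above every other library. Irx5 kept a level of about 5 CPM in several libraries without Irx4. ARB replicate 3, which had 26.2 CPM of Irx4, had less Irx5 than either SHR replicate 1 or SHR replicate 3. The deposited counts of Irx5 were not whole in any of the 12 libraries, so reads were shared with other genes, and its sum with Irx3 was whole in 6 libraries (within 0.01).

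Nr2f2 was at 19.0, 20.2 and 19.7 CPM in the WKY group, at 109, 42.0 and 115 CPM in the SHR group, at 130, 106 and 27.4 CPM in the ARB group, and at 107, 15.96 and 73.7 CPM in the ARNI group. Its relative Nr2f1 was at 4.54, 4.89 and 4.98 CPM in the WKY group, at 19.5, 11.4 and 18.5 CPM in the SHR group, at 17.0, 16.7 and 7.85 CPM in the ARB group, and at 16.6, 4.64 and 13.7 CPM in the ARNI group. Both were lowest in the WKY libraries and ARNI replicate 2 and intermediate in SHR replicate 2 and ARB replicate 3. The ratio of the Nr2f2 count to the Nr2f1 count, which is not corrected for length, was 3.96 to 4.18 in the WKY libraries and reached 7.61 in ARB replicate 1. Their counts were not whole in 8 libraries, and in each of these the sum of both was whole (within 0.01), so reads were divided between the pair and the division is an estimate.

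Hey1 was the factor with no gap between any groups. It was at 4.60, 5.39 and 7.91 CPM in the WKY group, at 3.34, 6.78 and 2.17 CPM in the SHR group, at 5.95, 3.92 and 8.24 CPM in the ARB group, and at 4.30, 5.19 and 5.22 CPM in the ARNI group. All 4 groups overlapped, although the gene was placed among the atrial factors.

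Tbx5 went with the atrial light chains. It was at 33.4, 32.8 and 31.0 CPM in the WKY group, at 352, 164 and 277 CPM in the SHR group, at 329, 325 and 130 CPM in the ARB group, and at 383, 33.4 and 329 CPM in the ARNI group. ARNI replicate 2 matched the WKY libraries, while SHR replicate 2 and ARB replicate 3 lay between the extremes.

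Tbx20 was at 95.7, 101.5 and 83.0 CPM in the WKY group, at 175, 130 and 196 CPM in the SHR group, at 176, 172 and 72.0 CPM in the ARB group, and at 245, 90.7 and 159 CPM in the ARNI group. Here ARB replicate 3 was the lowest of all libraries and lay below the WKY group, although its atrial share was 56.0%. Hand2 was the most even factor, at 37.6, 37.0 and 31.0 CPM in the WKY group, at 43.9, 46.7 and 48.6 CPM in the SHR group, at 51.9, 45.5 and 58.3 CPM in the ARB group, and at 42.9, 47.3 and 39.7 CPM in the ARNI group. The 9 libraries of SHRs all lay above the WKY libraries in Hand2 on this scale. With TMM-scaled CPM they overlapped, with WKY libraries up to 39.3 CPM and the others from 37.9 CPM.

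**Figure D1:**
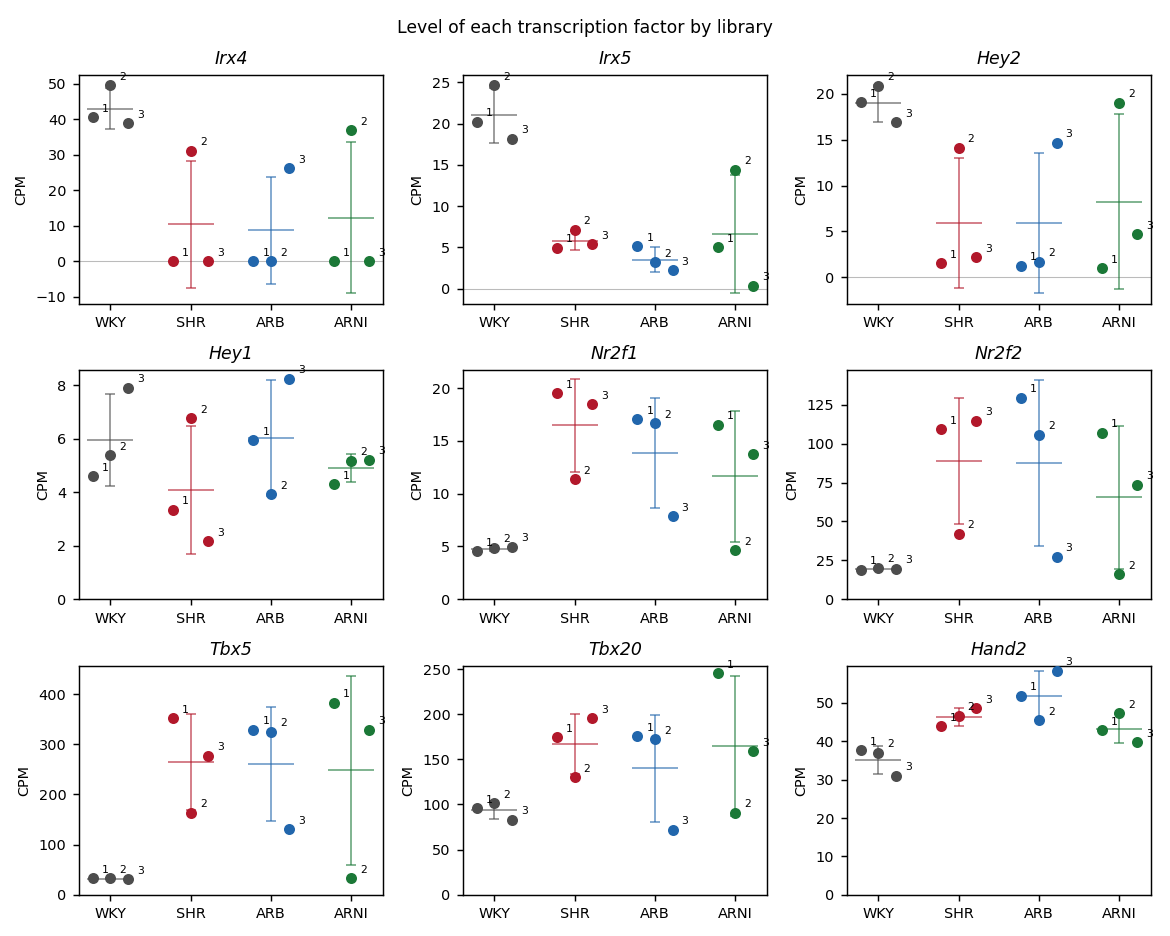
Level (CPM, linear axis) of each of the 9 transcription factors in the 12 libraries by group, with points numbered by replicate, a horizontal line at the mean and bars of 1 SD (n = 3), whose lower ends can fall below 0. Irx4 is at 26.2 to 36.9 CPM in SHR replicate 2, ARB replicate 3 and ARNI replicate 2 and near 0 in the other 6 libraries of SHRs, while Hand2 stays between 31.0 and 58.3 CPM throughout.

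The first comparison, SHR against WKY, addressed how the atrium of hypertensive rats differs from that of normotensive rats. Of the 9 factors, Tbx5, Nr2f2 and Nr2f1 were upregulated and Irx5 was downregulated (edgeR quasi-likelihood test with Benjamini-Hochberg adjustment over 13794 genes, adjusted p of at most 0.05 and absolute log2 fold change of at least 1). Over all genes, 8.89% passed, 5.54% upward and 3.35% downward. By an adjusted p of at most 0.05 alone, 5 factors passed (20.6% of all genes), and by an unadjusted p under 0.05, 6 factors (39.4% of all genes). All WKY libraries had under 0.2% atrial light chains and all SHR libraries at least 56.8%, so strain, blood pressure and chamber type cannot be told apart in this comparison.

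Tbx5 rose from 32.4 ± 1.24 to 264 ± 95.0 CPM (SD, n = 3), a log2 fold change of 2.88 (SE 0.26, adjusted p = 0.00316, edgeR). Nr2f2 rose from 19.7 ± 0.630 to 88.7 ± 40.5 CPM (SD, n = 3), a log2 fold change of 2.02 (SE 0.34, adjusted p = 0.0136, edgeR). This call of Nr2f2 was lost without WKY replicate 1, 2 or 3 (adjusted p = 0.0667, 0.0698 and 0.0680). Nr2f1 rose from 4.80 ± 0.230 to 16.5 ± 4.43 CPM (SD, n = 3), a log2 fold change of 1.64 (SE 0.21, adjusted p = 0.00678, edgeR). Irx5 fell from 21.0 ± 3.34 to 5.81 ± 1.16 CPM (SD, n = 3), a log2 fold change of -1.99 (SE 0.21, adjusted p = 0.00433, edgeR).

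Tbx20 had a log2 fold change of 0.69 (SE 0.14, adjusted p = 0.0218, edgeR), under the fold threshold. Hand2 (0.26, SE 0.10, adjusted p = 0.102), Hey1 (-0.66, SE 0.47, adjusted p = 0.332), Hey2 (-1.78, SE 0.80, adjusted p = 0.147) and Irx4 (-2.14, SE 1.49, adjusted p = 0.320) did not pass. The libraries of both groups did not overlap for 8 of the 9 factors, 5 higher and 3 lower in the SHR group, against 49.6% of all genes. Irx4 and Hey2 belong to these 8, and their wide errors came with SHR replicate 2, at 31.1 and 14.1 CPM.

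Without SHR replicate 2, 7 factors passed, 3 upward and 4 downward, while over all genes 15.7% passed, 7.9% upward and 7.81% downward. Hey2 then had a log2 fold change of -3.52 (adjusted p = 9.24e-05, edgeR) and Hey1 of -1.27 (adjusted p = 0.0311, edgeR). Irx4 passed with an adjusted p of 2.37e-05 (edgeR), and its fitted log2 fold change of -10.10 depends on the prior count, since the 2 remaining SHR libraries held 1 read and none.

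**Figure D2:**
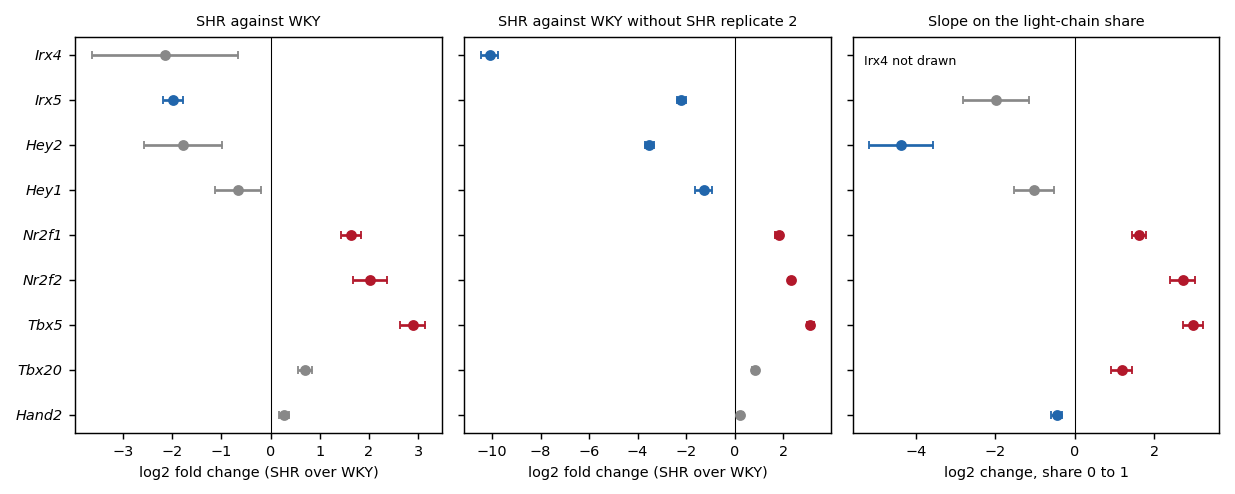
Log2 change of each factor with bars of 1 SE, for SHR against WKY (left), for the same without SHR replicate 2 (middle), and per unit of atrial light-chain share from 0 to 1 over 12 libraries with group as a term (right), each panel with its own axis. Red and blue points passed the threshold upward and downward and grey points did not. Leaving out SHR replicate 2 moves Hey2 from -1.78 to -3.52 and narrows its bar, and Irx4, whose fitted value depends on the prior count, is not drawn at the right.

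To set the factors against the light chains without comparing strains, a slope on the atrial share was fitted. The fit used all 12 libraries with group as a term, so the slope rests on differences between libraries of the same group. Those are mainly SHR replicate 2, ARB replicate 3 and ARNI replicate 2 against the other libraries of their groups. Only ARNI replicate 2 among them had almost no atrial light chain. The WKY libraries, with almost the same share, add little to the slope. Upward slopes passed for Tbx5, Nr2f2, Nr2f1 and Tbx20 and downward slopes for Irx4, Hey2 and Hand2 (edgeR quasi-likelihood test, adjusted p of at most 0.05). Over the 14452 genes tested, 28.7% passed, 13.3% upward and 15.4% downward, so a slope is common among all genes. The light chains that make the share were not among the 9 factors.

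From a share of 0 to 1, Tbx5 rose by a log2 value of 2.97 (SE 0.24, adjusted p = 1.17e-04, edgeR), Nr2f2 by 2.71 (SE 0.32, adjusted p = 3.99e-04) and Nr2f1 by 1.61 (SE 0.18, adjusted p = 3.27e-04). Tbx20 rose by 1.17 (SE 0.26, adjusted p = 0.00837, edgeR). Hey2 had a slope of -4.37 (SE 0.80, adjusted p = 0.00296, edgeR). Irx4 passed downward (adjusted p = 4.30e-06, edgeR), and the size of its slope is not given because it depends on the prior count. These 6 slopes passed in each alternative tried.

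Hand2 had a slope of -0.46 (SE 0.14, adjusted p = 0.0380, edgeR), which did not pass in 10 of 21 alternatives. It was 0.067 (adjusted p = 0.758) without the group term and otherwise stayed below 0, between -0.60 and -0.23. Irx5 had a slope of -1.97 (SE 0.83, adjusted p = 0.103, edgeR), and without ARNI replicate 2 it was 0.081 (adjusted p = 0.980). Hey1 had a slope of -1.02 (SE 0.50, adjusted p = 0.156, edgeR), and without ARNI replicate 2 it was -2.59 (adjusted p = 0.0428). Thus Irx5, although called between SHR and WKY, had no slope that passed within groups.

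**Figure D3:**
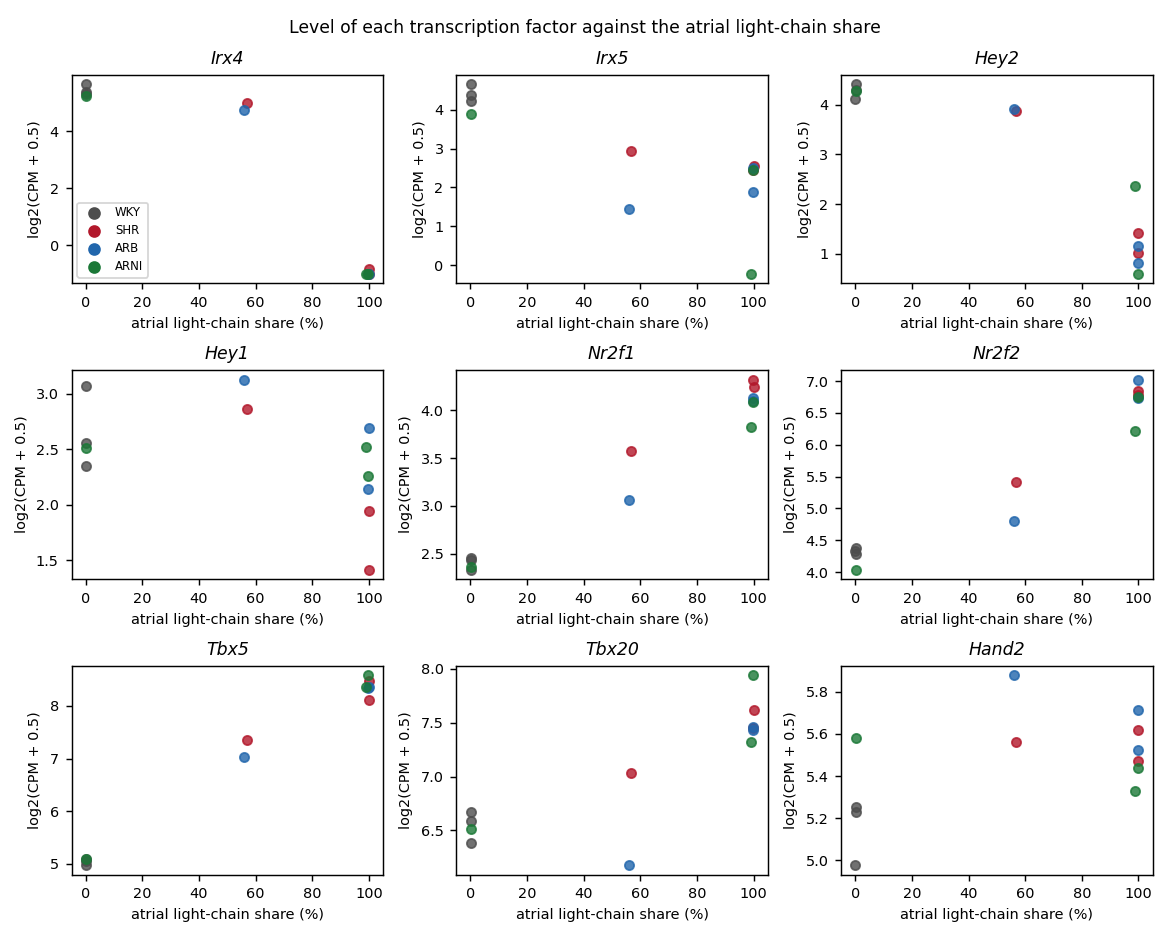
Level of each factor on the log2(CPM + 0.5) scale against the atrial light-chain share (%), with 1 point per library coloured by group. The libraries form 3 sets on the x axis, near 0%, at 56.0% and 56.8%, and from 98.9% to 99.9%, and Tbx5, Nr2f1 and Nr2f2 step upward from set to set while Irx4 and Hey2 are lowest in the last.

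Since the shares of the 9 libraries of SHRs fell into separate sets of 1, 2 and 6 libraries, no correlation over all 9 is given. Within the 6 libraries at 98.9% to 99.9%, Irx5 (Pearson r = 0.982, Spearman rho = 0.829) and Nr2f1 (r = 0.892, rho = 0.886) had raw two-sided exact permutation p-values of 0.0111 and 0.00694 for Pearson's r, each 0.05 after adjustment over the 9 factors. For Spearman's rho the exact permutation p-values were 0.0583 for Irx5 and 0.0333 for Nr2f1 (adjusted 0.175 for both). Without the 2 libraries farthest from the median share, r was 0.468 for Irx5 and 0.988 for Nr2f1, so that the relation of Irx5 rested on those libraries. So few libraries were left that these values only describe them. With TMM-scaled CPM, neither adjusted exact permutation p for r reached 0.05. The other 7 factors had adjusted exact permutation p-values of 0.204 to 0.932 for r.

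ARNI replicate 2 allowed the factors of a library of an SHR to be set beside the WKY libraries at a like light-chain share. It lay inside the range of the WKY libraries for 5 factors, Hey2, Hey1, Nr2f1, Tbx5 and Tbx20. It lay below for Irx4 (36.9 against 38.8 to 49.7 CPM), Irx5 (14.4 against 18.2 to 24.7 CPM) and Nr2f2 (15.96 against 19.0 to 20.2 CPM), and above for Hand2 (47.3 against 31.0 to 37.6 CPM, 1.34 times the WKY mean). With TMM-scaled CPM, Tbx5 also lay above (36.9 against 33.1 to 34.9 CPM), and the other 8 kept their place. This is 1 library, and no test was made. Irx4 and Irx5 were lower in all 9 libraries of SHRs than in the WKY group, and Hand2 was higher, while 16.4% of all 14452 genes had such a gap in either direction. With TMM-scaled CPM the gaps were those of Irx4, Irx5 and Tbx5, which was higher in all 9, and no longer that of Hand2 (16.7% of all genes).

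SHR replicate 2 and ARB replicate 3 had almost the same atrial share, and some ventricular factors differed between them. Relative to the WKY mean, Irx4 was at 72.4% and 60.8%, and Hey2 was at 74.5% and 77.4%, in SHR replicate 2 and ARB replicate 3, respectively. Irx5 was at 33.9% and 10.5%, and its neighbour in the family Irx3 at 40.4% and 10.4%. Prdm16, a factor of ventricular compact muscle, was at 81.8% and 48.1%. Thus the pair had like levels of Hey2 and different levels of Irx5, Irx3 and Prdm16. These are single libraries, SHR replicate 2 on saline and ARB replicate 3 on valsartan, and no test was made. Irx5 and Irx3 may not be independent here, since the sum of their counts was whole in 6 libraries. In ARNI replicate 2, Irx4, Hey2 and Prdm16 were at 85.7%, 100% and 97.4% of the WKY mean, and Irx5 and Irx3 at 68.5% and 65.2%.

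**Figure D4:**
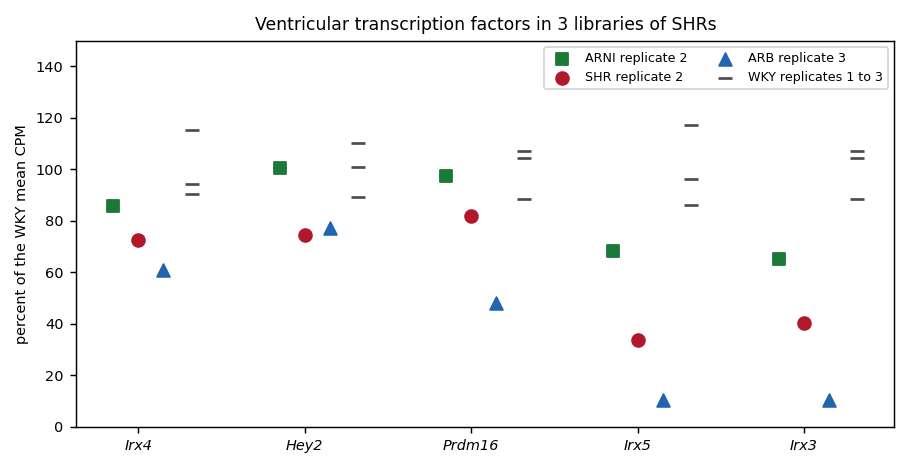
Level as a percent of the WKY mean CPM (linear axis from 0) of Irx4, Hey2, Prdm16, Irx5 and Irx3 in ARNI replicate 2 (square), SHR replicate 2 (circle) and ARB replicate 3 (triangle), with dashes for the 3 WKY libraries. Hey2 is alike in SHR replicate 2 (74.5%) and ARB replicate 3 (77.4%), whereas Irx5 is at 33.9% and 10.5%.

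The second set of comparisons asked what valsartan and sacubitril/valsartan changed in SHRs. No factor passed for ARB against SHR, ARNI against SHR or ARNI against ARB, with 8 of the 9 factors tested in each, Irx4 being removed by the filter on low counts. Over all genes, 0% passed in each (0 of 13979, 13955 and 13948, edgeR quasi-likelihood test), while an unadjusted p under 0.05 was seen for 225, 227 and 539 genes (1.61%, 1.63% and 3.86%), none of them a factor. DESeq2 called 3, 7 and 18 genes, and 0 factors.

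No factor had groups without overlap in these comparisons, against 5.39%, 6.56% and 10.5% of all genes. The standard errors of the factors' log2 fold changes were 0.16 to 1.21 for ARB against SHR, 0.15 to 1.27 for ARNI against SHR and 0.20 to 1.32 for ARNI against ARB. Each of the 3 groups held 1 library with ventricular light chains, and differences within these errors were not detectable. The count of 0 factors held without that library in both groups, an alternative chosen after seeing the data. The 3 comparisons share libraries.

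Among 29 other heart transcription factors, 24 were tested in SHR against WKY, 2 rose and 1 fell (edgeR, same thresholds, 8.89% of all genes). Hopx, a homeodomain-only cofactor of muscle cells, had a log2 fold change of 2.03 (adjusted p = 0.0287), and Tbx18, a T-box factor of the epicardium and sinus venosus, of 1.58 (adjusted p = 0.00489). Meis2, a TALE homeodomain factor, had a log2 fold change of -1.05 (adjusted p = 0.0256). The median was 0.18, against 0.01 over all genes.

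On the light-chain share, 4 of 26 other heart transcription factors tested had upward and 5 downward slopes that passed (28.7% of all genes), with a median of -0.01 against 0.06 over all genes. The largest in size were Irx3 (-5.97, SE 0.68, adjusted p = 3.34e-04, edgeR) and Prdm16 (-2.97, SE 0.58, adjusted p = 0.00422), followed by Tbx18 (1.72, adjusted p = 0.00271). Meis2 (-0.95, adjusted p = 0.0248) and Foxp1 (0.86, adjusted p = 4.83e-04), a forkhead repressor, came next. Irx3 was at 25.2 to 30.4 CPM in the WKY libraries and at 0.267 to 0.931 CPM in the 6 libraries of nearly pure atrial light chains, where Irx5 was at 0.359 to 5.35 CPM.

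Of 12 genes known to lie downstream of the factors, 1 passed in SHR against WKY, Nppa (log2 fold change 7.82, SE 1.02, adjusted p = 0.00703, edgeR), a target of Tbx5, against 8.89% of all genes. The median of the list was 0.08, against 0.01 over all genes. On the light-chain share, 2 passed upward and 3 downward, against 28.7% of all genes (median 0.36 against 0.06). Nppa (slope 6.47, adjusted p = 0.0466) and Nppb (4.42, adjusted p = 0.00583) code for natriuretic peptides. Kcnd2 (-2.26, adjusted p = 2.63e-04) and Kcnip2 (-2.15, adjusted p = 0.0447) code for a pore and an accessory subunit of the transient outward potassium channel, of which Kcnd2 is a known target of Irx5. Pln (-2.06, adjusted p = 3.59e-04) codes for phospholamban, the inhibitor of the calcium pump of the sarcoplasmic reticulum.

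In the Notch pathway, which lies upstream of Hey1 and Hey2, 0 of 16 genes rose and 1 fell in SHR against WKY, the receptor Notch4 (log2 fold change -1.30, adjusted p = 0.0244, edgeR), with a median of -0.15 against 0.01 over all genes. On the light-chain share, 1 of 16 passed upward and 3 downward. Both counts were no higher than the shares of all genes (8.89% and 28.7%), so they say nothing particular of the pathway. The receptor Notch2 passed upward (0.85, adjusted p = 0.00804), and the glycosyltransferase Mfng (-1.33, adjusted p = 0.0188), Notch4 (-0.95, adjusted p = 0.0175) and the ligand Dll4 (-0.88, adjusted p = 0.0455) passed downward. Notch4 and Dll4 are known from endothelium, whose 3 marker lists differed in the direction of their slopes. Of 5 arterial markers, which include Dll4, 3 passed downward (Dll4, Cxcl12 and Sox17), and all 5 slopes were below 0. Their summed level was 368 CPM in ARNI replicate 2, 283 CPM in SHR replicate 2 and 290 CPM in ARB replicate 3. It was 253 CPM in ARNI replicate 3 and 112 to 154 CPM in the other libraries of SHRs. Of 6 general endothelial markers, Cdh5 passed downward and none upward, and 4 slopes were above 0. Of 6 venous and lymphatic markers, Lyve1 passed upward (1.69, adjusted p = 0.00886). The summed level of the arterial markers was 300 to 405 CPM in the WKY group and 112 to 368 CPM in the other 9 libraries, that of the general markers 927 to 1011 CPM and 655 to 1675 CPM, and that of the venous and lymphatic markers 232 to 255 CPM and 220 to 374 CPM. Since no gene at all passed in the edgeR comparisons between the SHR, ARB and ARNI groups, these 3 lists could not hold one.

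Some markers of other cell types also passed in SHR against WKY or had slopes that passed. Over all genes, 5.54% rose and 3.35% fell in SHR against WKY, and 13.3% of slopes passed upward and 15.4% downward. Single genes of a short list cannot be set against these shares. Of 6 markers of epicardium and mesothelium, 5 rose in SHR against WKY and 5 had upward slopes on the light-chain share. Their summed level was 59.2 to 81.4 CPM in the WKY group, 213 to 448 CPM in the SHR group, 76.9 to 280 CPM in the ARB group and 47.1 to 311 CPM in the ARNI group, lowest in ARNI replicate 2. Of 9 cardiomyocyte markers, 0 passed in SHR against WKY and 4 had downward slopes. Of 7 fibroblast markers, none passed in either, with a summed level of 1342 to 4877 CPM in the SHR group and 1906 to 2081 CPM in the WKY group. In SHR against WKY, Myh11 and Kcnj8 of 7 smooth muscle and pericyte markers, Ptprc of 5 immune markers tested and Alas2 of 3 erythroid markers tested fell, and Prph of 4 neuronal and glial markers tested rose. On the share, Acta2 of the smooth muscle and pericyte markers passed upward, and Rgs5 and Kcnj8 of that list and Alas2 and Hbb of the erythroid list passed downward. No marker of conduction cells (4 of 6 tested) passed in either. No adipocyte marker passed, with 1 of 6 tested in SHR against WKY and 5 on the share, whose slopes were all above 0. The summed level of the adipocyte markers was 462 CPM in ARB replicate 2, 541 CPM in ARNI replicate 3 and 56.9 to 120 CPM in the others. Among the libraries of nearly pure atrial light chains, ARNI replicate 3 had both the highest Hey2 level and the highest sum of arterial endothelial markers. The part of these cell types and of endothelium in the levels of the factors, some of which are also made outside muscle, was not tested.

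The factors were also compared with each other and with all other genes of at least 1 CPM on average (13542 genes with the factors). The measure was Pearson's r of log2(CPM + 0.5) over the 12 libraries. These correlations describe likeness only, since the libraries form sets by light chain. Nr2f1 and Nr2f2 (r = 0.98), which share reads, Nr2f1 and Tbx5 (0.98), and Irx4 and Hey2 (0.96) were most alike, and Hey2 and Nr2f2 (-0.97) were most opposed. Irx5 and Hey2, both ventricular factors, were less alike (0.51), and Irx5 and Hey1 were near 0 (0.09).

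The genes most like each factor were Gpsm1 (0.994) and Hpd (0.994) for Irx4, Ckmt2 (0.996), which codes for the mitochondrial creatine kinase of muscle, and Malsu1 (0.993) for Hey2, and Glb1l2 (0.946) and Inppl1 (0.940) for Irx5. They were Zfp251 (0.991) and Arhgap31 (0.990) for Nr2f1, Bex4 (0.992) and Stx6 (0.990) for Nr2f2, Ddhd1 (0.995) and Tub (0.994) for Tbx5, and Arhgap35 (0.984) and Trip12 (0.979) for Tbx20. They were Nt5c3b (0.946) and Gps1 (0.936) for Hand2, and Prelid3b (0.851) and Bnip3 (0.843) for Hey1. Gpsm1 was at 377 to 444 CPM in the WKY libraries and 423 CPM in ARNI replicate 2, at 235 CPM in SHR replicate 2 and 261 CPM in ARB replicate 3, and at 22.0 to 28.4 CPM in the other 6. Hey1 thus had no gene as close as those of the other factors.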

How the data were processed

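RNA of rat left atrium was sequenced as single-end reads on a BGISEQ-500 platform. After filtering with SOAPnuke, the authors mapped reads with HISAT2 (2.0.4) and Bowtie2 (2.2.5), and the submitters' processing notes name the build Rnor 6.0. They deposited RSEM's expected counts for each gene, not normalized. The deposited table also holds 2 columns of the authors' own comparison, a log2 fold change and its p-value, which were not used.

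The expected counts, 23.6% of which were not whole, were rounded, filtered by filterByExpr, scaled by TMM and tested with edgeR (4.0.16, R 4.3.3) on the 6 libraries of each pair. Standard errors were derived from the F statistic. Called genes had an adjusted p of at most 0.05 and a log2 fold change of 1 or more in size (the study's thresholds), and slopes an adjusted p of at most 0.05. DESeq2 (1.42.0), other scalings and filters, other shares and left-out libraries were alternatives. CPM values were computed from unscaled totals, and a pseudocount of 0.5 was added for logarithms. Steps were tested on simulated data.

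Replicate numbers were checked for pairing. In ARNI against SHR, the deviations of same-numbered libraries had correlations of 0.509, 0.464 and 0.185, and all 6 libraries correlated best with their own number. This pairing comes from the data and not from the labels. In both groups replicate 2 was the library with ventricular light chains (atrial share 56.8% in SHR and 0.242% in ARNI). In the ARB group it was replicate 3 (56.0%). The part of the light-chain share in the pairing was not tested. In the other comparisons at least 1 pair was below 0.1.

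The factors and gene lists were chosen with earlier results of these data known. Named genes were the 9 factors, the light chains, up to 5 called genes per list and comparison with the largest change, the 2 genes most like each factor, and strain check genes. Irx3 and Prdm16 were singled out after their values were seen.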

Additional observations from a re-analysis of the deposited data

How the results depend on the processing

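For SHR against WKY, 4 factors were called, and 2 were called with all 12 libraries in 1 fit. Without 1 library, 3 to 7 were called, with 7 without SHR replicate 2 and 3 without any 1 WKY library. With the light-chain share as covariate, 1 was called (Irx4). That fit extrapolates, because all WKY libraries have shares near 0, and it turned the log2 fold changes of Irx4 (12.12), Hey2 (1.39), Hey1 (0.14), Nr2f2 (-0.42) and Tbx20 (-0.32). The cause was not tested. With the same covariate, 1 of the 14452 genes tested was called in ARNI against SHR and 1 in ARNI against ARB. Each was the factor Irx4 (-12.23 and -11.82). The size of these folds depends on the prior count, as does the slope of Irx4. Relative to the WKY mean, Irx4 was at 85.7% in ARNI replicate 2, 72.4% in SHR replicate 2 and 60.8% in ARB replicate 3. It was at no more than 0.155% in the rest of these groups, so the folds are not falls in its level. The slope of Irx5 ranged from -3.19 to 0.081 without 1 library (0.081 without ARNI replicate 2), and that of Hand2 turned to 0.067 without the group term. The count of 7 factors with a slope was 6 or 7 in all alternatives. With a replicate block, 4 factors were called in SHR against WKY and 7 had slopes, and 0 were called in each drug comparison. The block changed no call of a factor. In SHR against WKY, ARB against SHR and ARNI against ARB, 2 of 6 libraries correlated best with their own number.

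Of the correlations within 6 libraries, 2 had an adjusted exact permutation p of 0.05, while 0 reached it with TMM-scaled CPM and 1 with the share of Myl7 and Myl2 only. Leaving out a library there leaves fewer than 6 and gave no value. Over all genes, the 1226 calls of SHR against WKY became 579 with 12 libraries in 1 fit, 104 with the covariate, 681 with the block and 348 to 2205 without 1 library. The 4153 slopes became 6190 without the group term and 2074 without ARNI replicate 2. With library totals only, calls were 985 upward and 363 downward (764 and 462 with TMM) and slopes 3604 and 1570 (1929 and 2224 with TMM), as the median of all genes moved to 0.15 and 0.29.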

Other observations

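Other genes stood out in single libraries, and they were chosen after their values were seen. Shox2, a homeodomain factor of the sinus venosus and pulmonary vein muscle, was at 87.4 CPM in ARNI replicate 3, 29.4 CPM in ARB replicate 2 and 19.3 CPM in SHR replicate 2, and at no more than 0.522 CPM in the WKY libraries. ARNI replicate 3, which had the lowest Irx5 of all libraries (0.359 CPM), also had the highest level of Ucp1, the uncoupling protein of brown fat (182 CPM), and of the smooth muscle gene Tagln (154 CPM). Their part in the level of Irx5 was not tested.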
